A study of Gallus gallus with 30 samples.

Results

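The change in gene expression from stage HH24 to stage HH27 of the chicken embryo was measured by comparing the 2 arrays labelled HH27 with the 2 arrays labelled HH24, over all chicken probe sets and in both directions. These are 4 of the 30 arrays of a developmental series with 15 stages of the Hamburger and Hamilton table (HH), which ranks chicken embryos by their anatomy. The stage before, HH19, and the stage after, HH32, were sampled in that series with 2 arrays each. They place the change in a longer course, and like all 30 arrays they entered the choice of probe sets and the estimate of spread. All groups were labelled as wild-type embryos of the Nera line of mixed sex, from eggs of a local farm incubated at 37.5 °C. No treatment or genetic change separated the stages. The whole embryo without yolk and amnion was taken, RNA was pooled over embryos, and each of the 2 biological replicates of a stage was a pool on its own Affymetrix array. A value is therefore an average over all organs of several embryos, and the labels do not give the number of embryos in a pool.

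HH24 and HH27 fall around the fifth day of incubation, when the organ rudiments are in place and many cell types begin to make the proteins they are known for. The liver bud grows into a liver that secretes most of the proteins of blood plasma, among them albumin, fibrinogen and the carriers of retinol, iron and vitamin D. The mesonephros serves as the embryo's kidney, and mesenchyme in the limbs and trunk condenses to cartilage, whose matrix holds collagens II, IX and XI with proteoglycans. Neurons that have left the cell cycle switch on transmitters and neuropeptides. Meanwhile genes of early embryonic cells go down, of which LIN28B, an RNA-binding protein that blocks the maturation of let-7 microRNAs, is the best known.

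Each value is the MAS5 signal of a probe set, which is a group of short probes for one transcript read as one linear intensity. Of 37693 chicken probe sets, 29600 were bright enough to be tested. The background of an array was taken as the 95th percentile of its 689 probe sets for other organisms, and it lay at 47.2 and 34.9 on the HH24 arrays and 32.5 and 35.8 on the HH27 arrays. A probe set was called when its Benjamini-Hochberg adjusted p, from limma's moderated test on log2 signals, was below 0.05 and its change was at least 2-fold. Only called probe sets are said to have risen or fallen, and changes are given as log2 HH27 minus HH24 with the standard error of the fit. Where both arrays of the dimmer stage were at or below background, the fold was computed from the background value and is written "at least". Some medians are also given with background as floor, where each signal below its array's background was set to it. That floor was highest on an HH24 array, at 47.2. A gene below background on every array of both stages thus gets a change of -0.25 from the floors alone. In lists with dim genes this can lower the median, so a lower value alone is not read as a smaller rise. Signals of different probe sets cannot be ranked against each other, so levels are compared only within a probe set.

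One array stood apart. HH24 replicate 1 had the highest background of the 30 arrays, with 25.4 to 41.2 on the 26 arrays of other stages, and its bioB spike-in averaged 1725 against 814 to 1303 on those. The share of chicken probe sets above background was 65.0% on it, 70.3% on HH24 replicate 2 and 71.1% on both HH27 arrays. Its summed signal over 57 ribosomal protein genes was 2083890, against 1581440 on HH24 replicate 2 and 1483780 and 1644550 at HH27. The W-linked gene HINTW read 27182 on it, 13066 on HH24 replicate 2 and 16747 and 16871 at HH27, in pools labelled mixed sex. At HH38, under the same label, the stage mean of HINTW was 10.4, against 17632 at HH34, and the sex of the pools was not tested. The correlation of log2 signals was 0.941 within HH24 and 0.958 within HH27, and HH24 replicate 2 was closest to HH27 replicate 1, at 0.949. The main counts below are therefore also given without single arrays.

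From HH24 to HH27, 273 of 29600 probe sets were called (0.922%), of which 223 rose (0.753%) and 50 fell (0.169%). The median change over all tested probe sets was 0.0069. The called probe sets with a symbol stood for 201 genes, 170 higher and 31 lower, and 60 had no symbol. With 1 probe set for each of 12146 named genes, 129 rose (1.06%) and 19 fell (0.156%), and these shares are the background for the gene lists below. Of the rises, 62 started from signals at or below background on both HH24 arrays and 25 on one. A further 136 were above background on both.

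In every called probe set the signals of the stages did not overlap, which held for 46.0% of all tested probe sets. That share takes both directions together, and none was computed for each direction alone. Counts of such genes in the lists below are to be read beside it. The counts depended on single arrays, each stage having 2. Without HH24 replicate 1, 124 probe sets were called, 111 higher and 13 lower, and without HH24 replicate 2 the counts were 593, 508 and 85. Without HH27 replicate 1 they were 141, 88 and 53, and without HH27 replicate 2 they were 151, 93 and 58. All 273 kept their direction in each of these fits, which was fixed in advance, since signals that do not overlap cannot change order when an array is dropped. At an unadjusted p below 0.05 there were 4607 probe sets, and without the 2-fold minimum 948 passed, 483 higher and 465 lower. The surplus of rises was thus seen among changes of 2-fold and more.

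**Figure D1:**
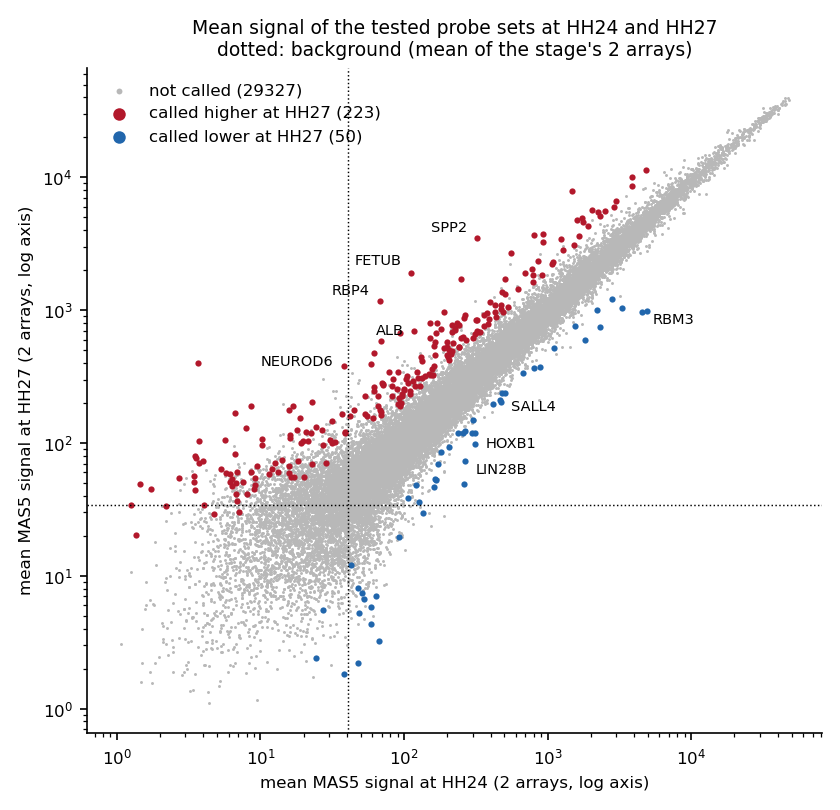
Mean MAS5 signal of each tested probe set at HH24 (x axis) and at HH27 (y axis), both on log axes, with called probe sets coloured by direction. The 223 probe sets that rose lie above the diagonal and outnumber the 50 that fell, and FETUB, RBP4 and SPP2 are among the points farthest from it.

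Genes of plasma proteins made by the liver gave the largest rises. FETUB, which encodes the protease inhibitor fetuin B, read 95.3 and 133 at HH24 and 1905 and 1886 at HH27, a rise of 4.07 ± 0.69 or 16.8-fold (adjusted p = 0.00165). RBP4, the carrier of retinol in blood, read 39.0 and 117 at HH24 and 1237 and 1119 at HH27, with 1 of the 2 HH24 arrays below background, and its fold with that array at background was 15.8 (adjusted p = 0.00648). SPP2, a secreted phosphoprotein of liver and bone, read 273 and 381 at HH24 and 3580.1 and 3352 at HH27, a 10.7-fold rise (adjusted p = 2.74e-04). For each of these 3 genes the lower HH27 array was several times the higher HH24 array. ALB, which encodes serum albumin, read 124 and 112 at HH24 and 779 and 621 at HH27, a rise of 2.56 ± 0.34 (adjusted p = 1.61e-04).

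Of 47 measured genes on the liver list, 15 rose and 0 fell, against 1.06% and 0.156% of all named genes. Their median change was 1.35, or 0.91 with signals below background set to background, against 0.0011 over all named genes. In 33 of the 47 both HH27 arrays were above both HH24 arrays, and in 3 both were below. The summed signal of the list was 15139 and 18114 at HH24 and 42816 and 42257 at HH27. The list had 11 rises without HH24 replicate 1, 20 without HH24 replicate 2 and 11 without either HH27 array. In a whole-embryo sample, more liver cells and more RNA of these genes in each liver cell cannot be told apart, and the same holds for each organ below.

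The called liver genes covered several groups of plasma proteins. Of the clotting system, FGA and FGG, which encode the α and γ chains of fibrinogen, rose 3.43-fold and 2.71-fold, FGG from 851 and 869 to 2334 and 2325. PLG, the precursor of the clot-dissolving protease plasmin, read 177 and 260.2 at HH24 and 796 and 750 at HH27, and SERPIND1, a thrombin inhibitor, rose 2.55-fold. Among carriers, TF, the iron carrier transferrin, rose by 1.48 ± 0.14 from 1744 and 2405 to 5605 and 5824, and GC, the vitamin D-binding protein, rose 2.89-fold. ITIH2 and AMBP, which supply parts of the inter-alpha-trypsin inhibitor family, rose by 2.03 ± 0.29 and 2.02 ± 0.26. AMBP read 67.2 and 72.6 at HH24 and 278 and 288 at HH27, with no overlap and a small spread within each stage. APOH, a lipid-binding plasma protein, rose 2.74-fold. FGA and PLG were each called on 1 of 2 probe sets. TF was also read by another bright probe set that rose, and by one that did not, at 3090.3 and 3199 at HH24 and 3140.5 and 2916 at HH27.

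Some liver genes did not pass. TTR, the thyroxine carrier transthyretin, read 4280.1 and 4952 at HH24 and 8134 and 8066 at HH27, a difference of 0.82 ± 0.13 that had an adjusted p of 0.0011 but was under 2-fold. The regulator HNF4A read 55.6 and 54.0 at HH24 and 92.5 and 102 at HH27 (adjusted p = 0.114). AFP, α-fetoprotein, read 18.9 and 99.7 at HH24 and 49.1 and 27.5 at HH27, with 1 array of each stage at or below background and the stages overlapping. APOB, the main protein of lipoproteins that carry yolk lipid, was called on 1 of its 7 probe sets, at 77.6 and 65.1 at HH24 and 230.1 and 340 at HH27. Its brightest probe set read 1126 and 704 at HH24 and 2763 and 2524 at HH27, with an adjusted p of 0.244.

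At the next stage all 15 called liver genes were higher at HH32 than at HH27. The share over all tested probe sets was not computed for this step. The stage mean of ALB went from 118 at HH24 through 696 at HH27 to 22218 at HH32, and that of FETUB from 113 through 1896 to 13216. The earlier course divided them. In 8 of the 15 the highest stage mean between HH2 and HH11 was above the HH27 mean, and in 11 it was above the HH24 mean. FGG had a stage mean of 10882 at HH9, was at 323 at HH19, and then reached 860.3, 2329.6 and 8998 at HH24, HH27 and HH32. HH9 is a stage before the liver has formed. Of all 223 rising probe sets, 30 had their highest stage mean at HH9 (13.5%), against 3.25% of all tested probe sets. Those with a symbol stood for 23 genes, of which 2 are on the liver list. Other called liver genes had an early peak at HH9 but were higher still at HH38, such as FGA with 2241 and 3709. Enzymes and transport genes described below are among the 23. UGT1A1 had stage means of 9151 at HH9 and 571 at HH27, and CUBN of 6234 and 379.

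**Figure D2:**
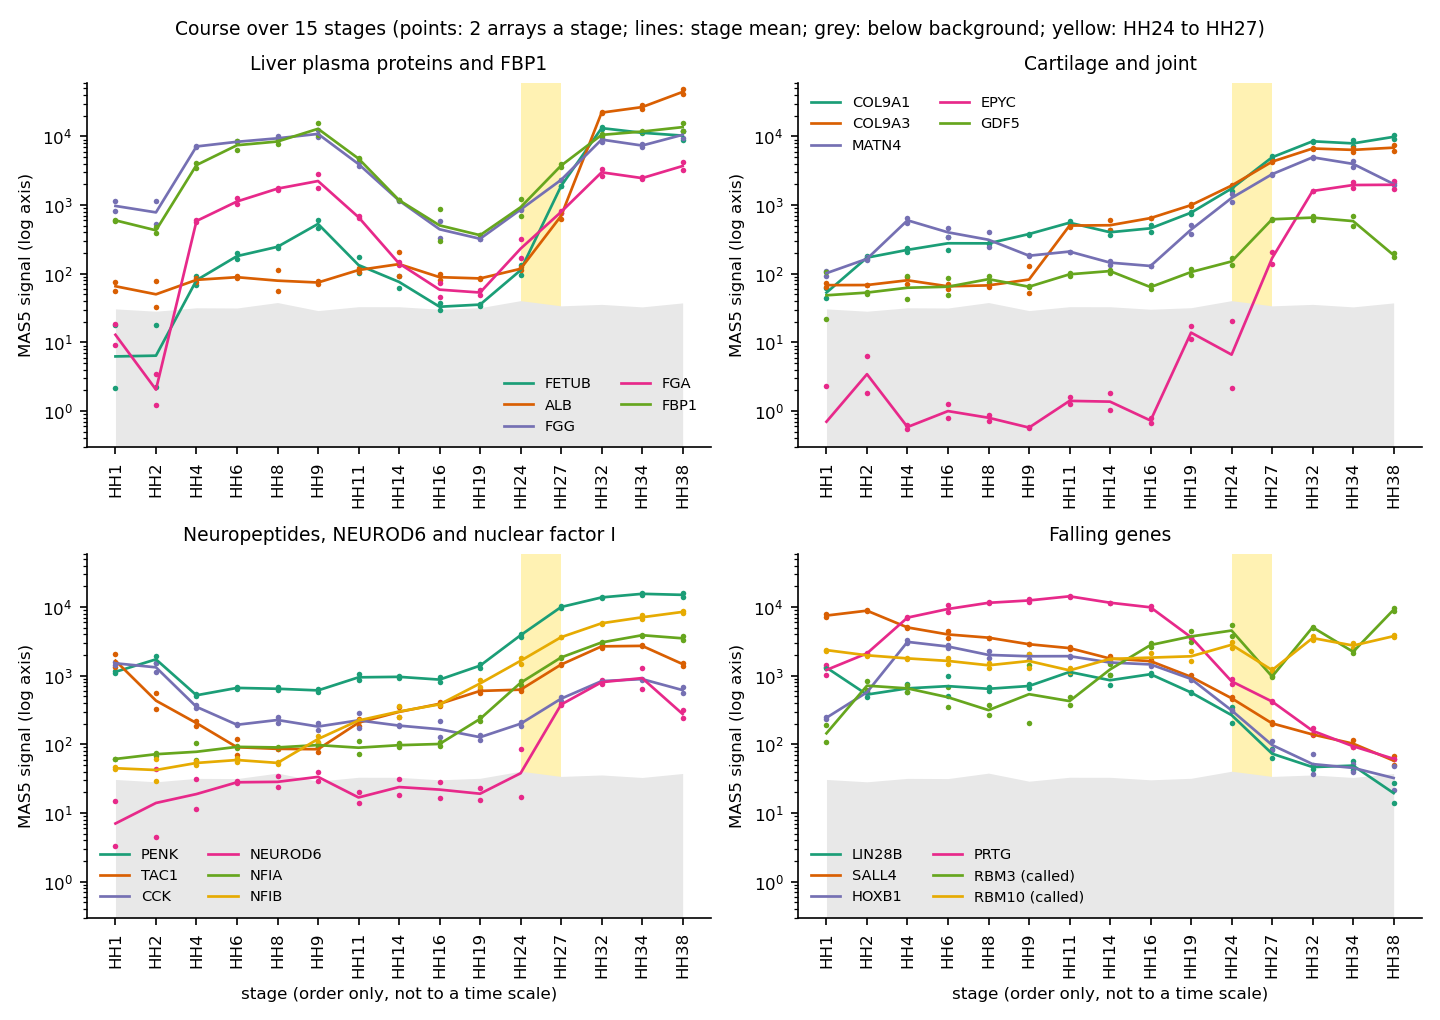
Mean MAS5 signal (log axis) of named genes at each of the 15 stages, with the single arrays as points and the HH24 to HH27 step shaded. The 4 panels hold liver genes, cartilage and joint genes, neuropeptides with NEUROD6 and nuclear factor I, and falling genes. FGG shows an early peak of 10882 at HH9 and a low of 323 at HH19, and ALB goes from 118 at HH24 to 22218 at HH32. The called RBM3 probe set that is drawn drops from 4542 to 970 and returns to 5068 at HH32, which the brightest RBM3 probe set does not.

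Some enzymes known from the liver rose too. The lists for this group, and those for nuclear factor I and beta-defensins, were drawn up after the called genes had been seen, so their counts are descriptions of the choice. Of 21 measured genes for the breakdown of tyrosine, tryptophan and methionine, 8 rose and 0 fell. HPD, which acts early in tyrosine breakdown, read 476 and 528 at HH24 and 1575 and 1851 at HH27, a rise of 1.77 ± 0.21, and HGD, which acts later in that pathway, read 63.1 and 128 at HH24 and 360.2 and 319.9 at HH27. TAT, tyrosine aminotransferase, the entry step, was below background on both HH24 arrays and read 98.9 and 112 at HH27, at least 2.59-fold higher. KYNU and HAAO of tryptophan breakdown rose, KYNU at least 2.83-fold and HAAO from 86.0 and 44.9 to 279.8 and 246. MAT1A, which makes S-adenosylmethionine in liver, read 365 and 499 at HH24 and 1103 and 1065 at HH27, BHMT2, a methyltransferase of methionine salvage, rose 2.21-fold, and GATM, the first enzyme of creatine synthesis, rose 2.60-fold.

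Of 29 conjugating and oxidising enzymes, 14 rose and 0 fell, and 28 of the 29 had a change above 0. The sulfotransferase SULT read 84.6 and 105 at HH24 and 679 and 673 at HH27, a rise of 2.84 ± 0.39 (adjusted p = 2.38e-04), and its relatives SULT1C3 and SULT1E1 rose 3.33-fold and 2.77-fold. AKR1B10, an aldo-keto reductase, rose 5.15-fold from 205 and 175 to 939 and 1013. HSD11B1B, named after an enzyme of glucocorticoid interconversion, read 59.5 and 103 at HH24 and 376 and 315 at HH27. UGT1A1, which couples bilirubin and other compounds to glucuronic acid, read 154 and 174 at HH24 and 635 and 513 at HH27, and PNAT10, an arylamine acetyltransferase, read 216 and 234 at HH24 and 738 and 736 at HH27. The cytochrome CYP1A2 rose 3.86-fold, and CYP2AC1 was below background on both HH24 arrays and read 177 and 206 at HH27 on its called probe set, at least 4.69-fold. A second CYP2AC1 probe set read 97.9 and 99.9 at HH24 and 353 and 332 at HH27 and missed the threshold (adjusted p = 0.0591). SULT1E1 and CYP1A2 were each called on 1 of 2 probe sets, and UGT1A1 on 2 of 3. Without HH24 replicate 1 the 14 rises of this list became 9, and the 8 of the amino acid list became 3.

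FBP1 and PCK1, enzymes of glucose synthesis, also rose. FBP1, the fructose bisphosphatase of gluconeogenesis, read 703 and 1229 at HH24 and 3909 and 3619 at HH27, a rise of 2.02 ± 0.31 (adjusted p = 6.43e-04). PCK1, phosphoenolpyruvate carboxykinase, was below background on both HH24 arrays and read 84.3 and 109 at HH27, at least 2.36-fold higher (adjusted p = 0.0203). PDK4, a kinase that shuts pyruvate out of the citrate cycle, read 206 and 205 at HH24 and 491 and 509.9 at HH27. These 3 were the only calls among 25 genes of glycolysis and glucose transport, whose median change was 0.05, or -0.02 with background as floor, with no glycolytic enzyme called. Of 13 genes of glucose synthesis and storage, a list written after their values were seen, the same 3 rose and 10 were not called. The median of that list was 0.27, or -0.07 with background as floor. Both medians with background as floor can be lowered by the higher floor at HH24. PFKFB1, which sets the level of a regulator of glycolysis, was called on a dimmer probe set at 97.0 and 138 at HH24 and 272 and 319 at HH27, while its brightest read 4911 and 3716 at HH24 and 4206 and 3932 at HH27. SLC2A5, a sugar transporter, was also called on a dimmer probe set, at 1.88 and 2.61 at HH24 and 39.7 and 28.4 at HH27. That probe set was above background only on HH27 replicate 1, and its change with background as floor was -0.11. The brighter SLC2A5 probe set went the other way without a call, with stage means of 43.4 at HH24 and 18.9 at HH27. PCK1 lost its call in 3 of the fits that left out an array and PDK4 in all 4. Among 52 genes of oxidative phosphorylation 0 were called and the median was -0.08, or 0.002 without HH24 replicate 1.

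Of 25 measured kidney genes, 5 rose, 1 fell and the median change was 0.81, or 0.51 with background as floor. Of the 5, FBP1 and PCK1, described above, are also known from the liver. SLC13A3, a dicarboxylate transporter of kidney tubules, read 368 and 417 at HH24 and 822 and 902 at HH27, and CUBN, the cubilin receptor that retrieves filtered proteins, read 166 and 155 at HH24 and 409 and 351 at HH27. SLC12A3, the sodium chloride transporter of the distal tubule in mammals, read 23.5 and 35.0 at HH24 and 60.4 and 83.2 at HH27, with HH24 replicate 1 below background and HH24 replicate 2 barely above it. SLC34A2, a sodium phosphate transporter, went the other way and read 64.1 and 35.8 at HH24 and 16.0 and 4.04 at HH27, below background on both HH27 arrays, a fall of at least 1.41-fold. CUBN was called on 1 of its 4 probe sets, and SLC12A3 and SLC34A2 each on 1 of 2. The kidney list had 3 rises without HH24 replicate 1 or either HH27 array and 6 without HH24 replicate 2, and its fall was lost without HH24 replicate 1 or HH27 replicate 2. The regulators PAX2 and LHX1 of the early kidney differed by 0.17 and -0.20 and were not called.

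Because yolk sac endoderm shares genes with the liver and could be carried over at dissection, its markers were counted. Of 28 measured yolk sac genes 4 rose (RBP4, TF, CUBN and SLC3A1), with a median change of 0.80. The count was 2 without HH24 replicate 1 and 7 without HH24 replicate 2. The summed signal was 11088 and 12575 at HH24 and 23899 and 23793 at HH27. The list shares 8 genes with the liver list. For the 17 yolk sac genes on neither the liver nor the kidney list, 1 rose, the median change was 0.37 and the sums were 2656 and 2819 at HH24 and 3530 and 3762 at HH27. That gene is SLC3A1, a subunit of an amino acid transporter, at 57.7 and 84.0 at HH24 and 156 and 188 at HH27. FABP2 and SLC15A1, an intestinal-type fatty acid-binding protein and a peptide transporter, were below background on all 4 arrays, as was GATA4. This held for only 4 of the 28 yolk sac genes and 3 of the 17. In 20 of the 28 both HH27 arrays were above both HH24 arrays, and in 4 both were below. The part of yolk sac tissue in the liver result was not tested.

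Cartilage genes formed the next group. Of 32 measured genes 4 rose and 0 fell, and the median change was 0.50, or 0.42 with signals below background set to background. COL9A1, a chain of the collagen IX that coats cartilage fibrils, read 1614 and 1884 at HH24 and 5190.1 and 4758 at HH27, a rise of 1.51 ± 0.18 or 2.85-fold (adjusted p = 3.53e-05). COL9A3, another chain of the same collagen, read 1880 and 1969.6 at HH24 and 4243 and 4336 at HH27, and MATN4, the matrix adaptor matrilin 4, read 1099.5 and 1467 at HH24 and 2866 and 2772 at HH27. COL9A1 and COL9A3 were each called on 1 of 3 probe sets and MATN4 on 1 of 2. EPYC, the small proteoglycan epiphycan of growing cartilage, was below background on both HH24 arrays and read 208 and 137 at HH27, at least 4.16-fold higher (adjusted p = 0.0308).

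The rest of the cartilage list moved less or with more scatter. COL2A1, the main cartilage collagen, read 3753 and 3649 at HH24 and 4980 and 5495 at HH27, a difference of 0.50 ± 0.26 that did not pass (adjusted p = 0.366). ACAN, the large proteoglycan aggrecan, read 101 and 128 at HH24 and 267 and 302 at HH27, a difference of 1.32 ± 0.93 (adjusted p = 0.569), where the standard error takes in the spread at all 15 stages. SOX9, the transcription factor that starts cartilage formation, read 557 and 703 at HH24 and 484 and 526 at HH27, with the HH27 arrays below both HH24 arrays and no call. The list had 1 call without HH24 replicate 1, 4 without HH24 replicate 2 and 2 without either HH27 array.

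GDF5, a growth factor of the forming joints, was on the limb bud list and was the only call among its 38 measured genes, on 1 of its 2 probe sets. It read 136 and 168 at HH24 and 637 and 608 at HH27, a rise of 2.04 ± 0.47 or 4.11-fold (adjusted p = 0.0158). The median change of the limb bud list was -0.21. NOG, which encodes noggin, an inhibitor of bone morphogenetic proteins that is also known from joints and cartilage, was on no list and was picked after its values were seen. It read 148 and 131 at HH24 and 328 and 314 at HH27, a 2.30-fold rise (adjusted p = 0.0108). Of 37 bone, tendon and connective tissue genes, counted with 1 probe set per gene, 0 were called, with a median change of 0.43. BGN, which encodes biglycan, was not called on the probe set that stood for it but rose on 1 of its 3 probe sets. That one was below background on both HH24 arrays and read 99.3 and 106 at HH27, at least 2.53-fold higher (adjusted p = 0.0286). In 26 of the 37 listed genes both HH27 arrays were above both HH24 arrays, against 2 below. TNMD, the tendon protein tenomodulin, read 109.5 and 153 at HH24 and 422 and 528 at HH27 (adjusted p = 0.406), and COL15A1 differed by 1.71 ± 1.04 without a call.

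**Figure D3:**
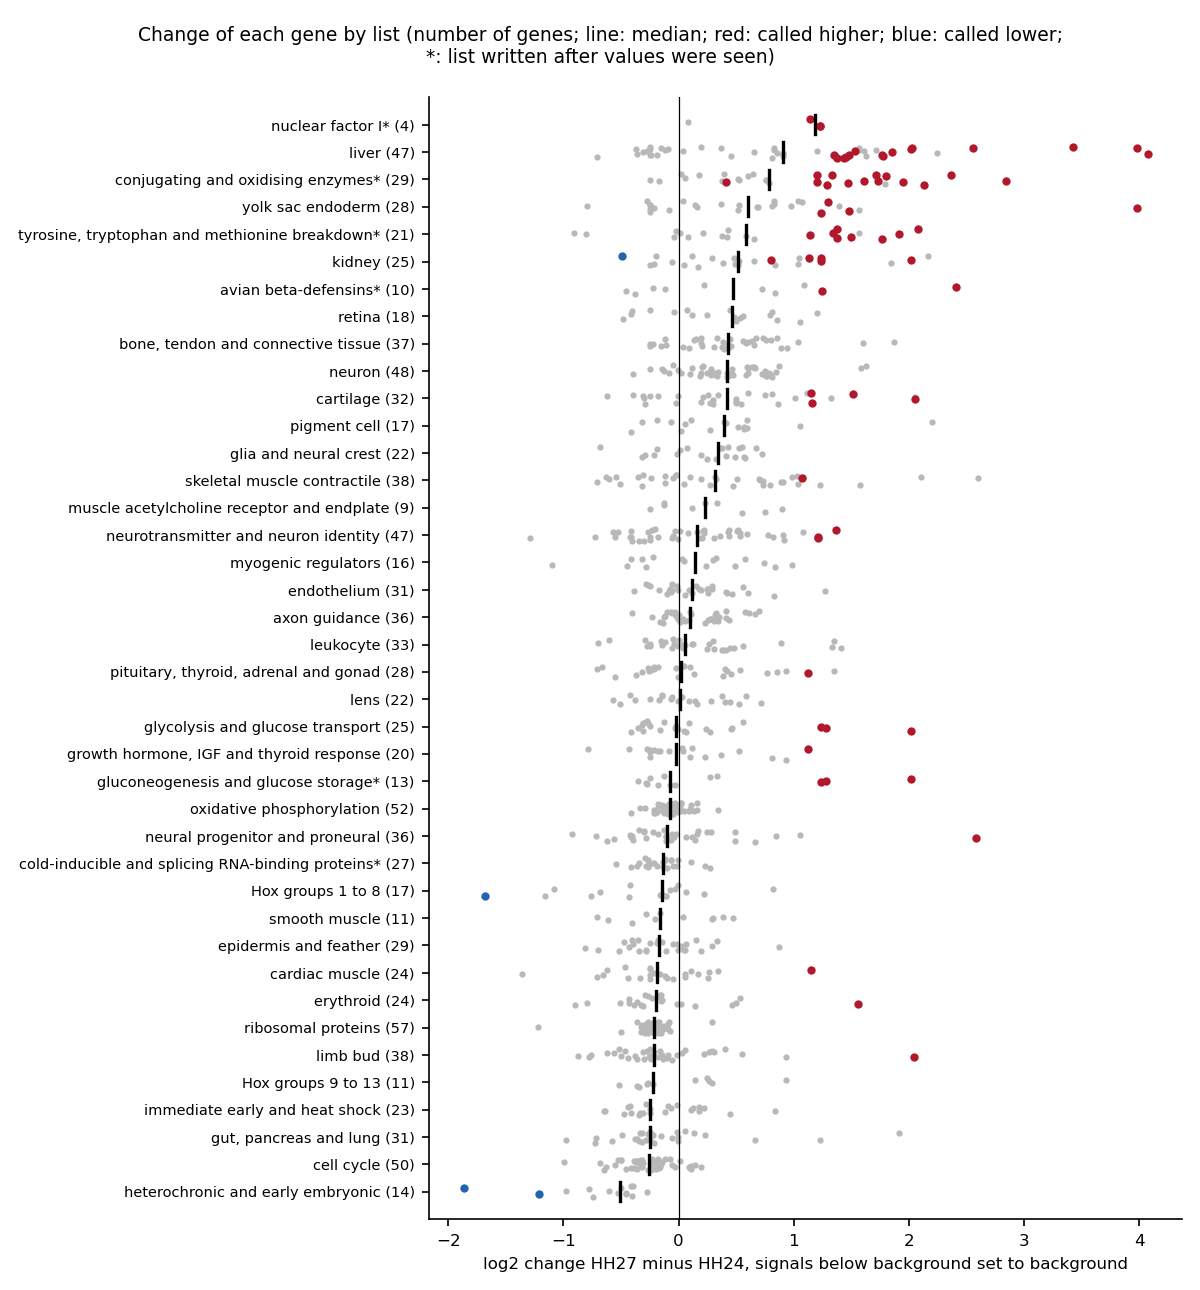
Change from HH24 to HH27 (log2, signals below background set to background) of the measured members of 40 gene lists with at least 4 measured members, sorted by the list median (bar), with called members coloured. Nuclear factor I, the liver list and the conjugating enzymes have their medians farthest to the right, and the early embryonic list farthest to the left at -0.51. The floors differ between the stages, so a gene below background on every array of both stages lies at -0.25. The lists for nuclear factor I and the conjugating enzymes were written after the called genes had been seen, so their place describes that choice.

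The calls on the transmitter list were for neuropeptides. Of 47 genes of transmitter systems and neuron identity 3 rose, all of them precursors of neuropeptides, and the median change of the list was 0.22. PENK, the precursor of the enkephalins, read 3664 and 4112 at HH24 and 9552 and 10466 at HH27, a rise of 1.36 ± 0.12 or 2.58-fold (adjusted p = 1.83e-06). TAC1, the precursor of substance P, read 649 and 603 at HH24 and 1439 and 1465 at HH27. CCK, cholecystokinin, read 187 and 214 at HH24 and 492 and 435 at HH27 on the called 1 of its 2 probe sets. All 3 had narrow spreads within each stage. Their signals were not confined to late stages. CCK had a stage mean of 1515 at HH1 and 463 at HH27, and TAC1 of 1653 and 1452, while PENK had 1137 and 9999. The list had 1 call without HH24 replicate 1 and 5 without HH24 replicate 2. PENK kept its call under every alternative, and TAC1 and CCK lost theirs under 3 and 2 of the 4 fits that left out an array. CRHBP, the binding protein that holds corticotropin-releasing hormone, is on no list and was among the 15 largest rises, at 58.3 and 59.8 at HH24 and 419 and 368 at HH27, a rise of 2.73 ± 0.32 (adjusted p = 3.54e-05).

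NEUROD6, a transcription factor of differentiating neurons, was the only call among 36 neural progenitor and proneural genes, whose median change was -0.10. It read 16.9 and 85.0 at HH24 and 389 and 371 at HH27, with HH24 replicate 1 below background. Its fold with that array at background was 6.00 (adjusted p = 0.032), and it lost the call under 3 of the fits that left out an array. The general neuron list had 0 calls among 48 genes, yet its median change was 0.45, and in 33 of the 48 both HH27 arrays were above both HH24 arrays against 2 below. TUBB3, the neuronal tubulin, read 632 and 888 at HH24 and 1239.5 and 1273 at HH27, a difference of 0.75 ± 0.16 with an adjusted p of 0.00858 and under 2-fold. SCG3, a granin of secretory granules, differed by 0.88 ± 0.24 (adjusted p = 0.0448). TUBB3 and SCG3 were picked after their values were seen. Glia and neural crest genes, 22 measured, and axon guidance genes, 36 measured, had 0 calls and medians of 0.34 and 0.10. ROBO2, an axon guidance receptor, was not called on its brightest probe set, which stood for it in that list, but rose on 1 of its 5 probe sets, at 284 and 341 at HH24 and 649.6 and 678 at HH27 (adjusted p = 0.0233).

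The nuclear factor I genes encode transcription factors that take part in the switch of neural progenitors to glia and in the development of lung, muscle and other organs. Of the 4, 3 rose. NFIA read 743 and 836 at HH24 and 1861 and 1824 at HH27, a rise of 1.22 ± 0.22 (adjusted p = 0.00247). NFIB read 1494 and 1817 at HH24 and 3646 and 3626 at HH27 and NFIX 71.5 and 120 at HH24 and 203 and 233 at HH27, rises of 1.14 ± 0.24 and 1.23 ± 0.34. NFIC read 133 and 85.2 at HH24 and 109 and 116 at HH27 and was not called. Other probe sets of NFIA and NFIB had changes between 0.26 and 0.94 and were not called. Without HH24 replicate 1 none of the 4 was called, and without either HH27 array 1 was.

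The skeletal and cardiac muscle lists had 1 rise each (2.63% and 4.17% of their measured genes), against 1.06% of all named genes. TNNC2, the calcium-binding troponin of fast fibres, was the only call among 38 skeletal muscle genes, at 1086 and 1094 at HH24 and 2222 and 2349 at HH27, a rise of 1.07 ± 0.22 (adjusted p = 0.00631). The list's median change was 0.32, and in 21 of the 38 both HH27 arrays were above both HH24 arrays, against 7 below. MYL10, a regulatory myosin light chain, was the only call among 24 cardiac muscle genes, at 2551 and 3476 at HH24 and 6792 and 6443 at HH27, where the list's median was -0.19. Among 16 regulators of muscle formation 0 were called. MYOG, myogenin, read 219 and 232 at HH24 and 408 and 487 at HH27 (adjusted p = 0.535), and VGLL2 differed by -1.10 ± 0.60. Neither TNNC2 nor MYL10 was called without HH24 replicate 1.

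Several other rises came from single genes of small groups. The defensin genes AvBD9 and AvBD10, which encode antimicrobial peptides, rose, AvBD9 from 119 and 191 to 913 and 697 (5.29-fold, adjusted p = 1.52e-05) and AvBD10 from 4420.3 and 5252 to 10885 and 11959 (2.37-fold). They were 2 of 10 measured defensins, and the list also had 2 calls in each fit that left out an array. DIO2, the deiodinase that activates thyroid hormone, read 246 and 236 at HH24 and 498 and 553 at HH27 on the called 1 of its 2 probe sets. It was the only call among 20 genes of growth hormone, IGF and thyroid response and among 28 of pituitary, thyroid, adrenal and gonad. DIO2 was not called in any of the 4 fits that left out an array. FGFBP2, a binding protein of fibroblast growth factors, read 84.1 and 56.9 at HH24 and 565 and 610 at HH27, 8.48-fold higher with an adjusted p of 0.0444 that passed in none of those fits. AVDL, an avidin-like gene, read 7.68 and 32.8 at HH24 and 184 and 168 at HH27, below background on both HH24 arrays and at least 4.34-fold higher at HH27. It was called on 1 of its 2 probe sets. CL2 read 43.3 and 89.2 at HH24 and 447 and 498 at HH27, with HH24 replicate 1 below background, and LOC418414 read 33.4 and 15.5 at HH24 and 207 and 200.3 at HH27, the latter from below background and at least 5.02-fold higher.

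**Figure D4:**
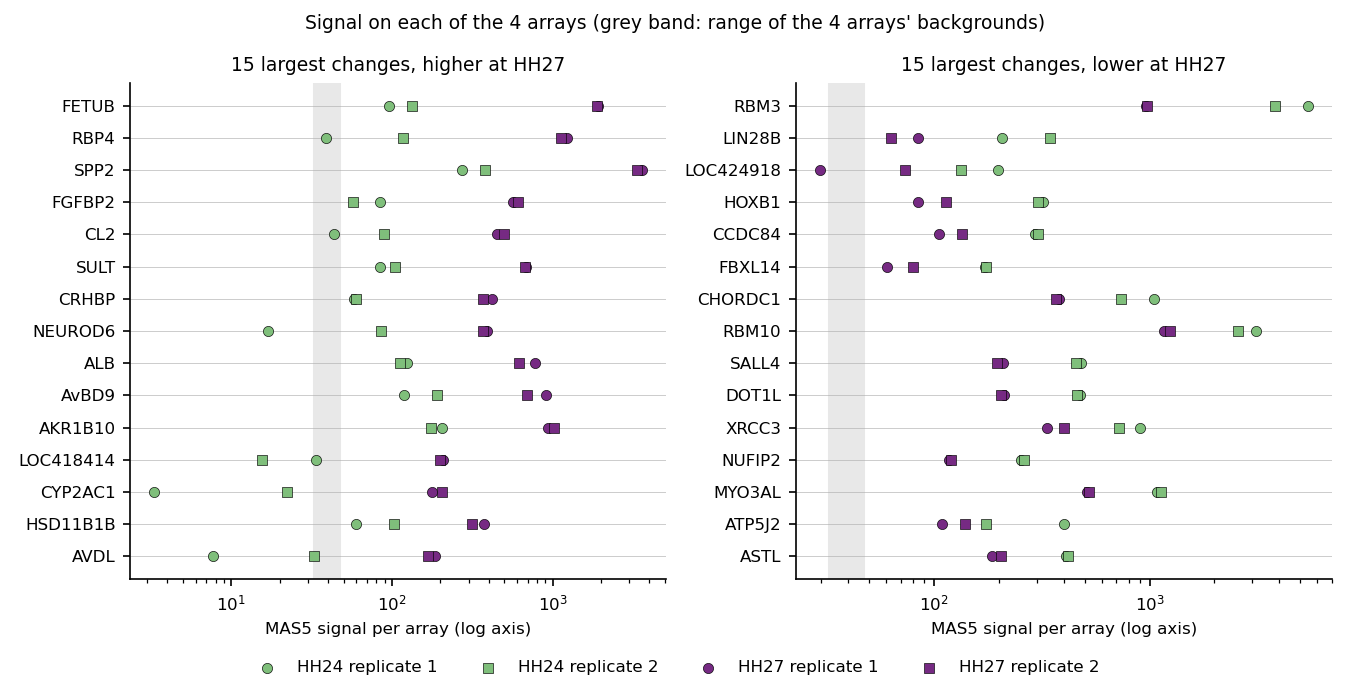
MAS5 signal (log axis) on each of the 4 arrays for the 15 largest rises and 15 largest falls among called genes, with HH24 in green and HH27 in purple, circles for replicate 1, squares for replicate 2, and a grey band over the range of the 4 backgrounds. By the rule that chose them the stages do not overlap in any gene, and FETUB moves from 95.3 and 133 to 1905 and 1886.

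Blood cell markers were counted because the pools hold blood. Of 24 erythroid genes 1 rose, HEMGN, a nuclear protein of blood precursors, at 61.2 and 175 at HH24 and 272 and 341 at HH27. The median of that list was -0.20 and its summed signal was 252461 and 193757 at HH24 and 174738 and 198259 at HH27. In the sum only HH24 replicate 1 was apart. By gene, 13 of the 24 were lower on both HH27 arrays than on both HH24 arrays, against 5 higher. Of 33 leukocyte genes 0 were called, the median was 0.27 or 0.06 with background as floor, and the sums were 6972 and 6363 at HH24 and 7646 and 8114 at HH27. Of 23 immediate early and heat shock genes, which respond to handling, 0 were called and the sums were 153108 and 134608 at HH24 and 119758 and 117946 at HH27. Endothelial genes, 31 measured, had 0 calls and a median of 0.12.

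The genes that fell were fewer, and early embryonic genes were among them. All 14 measured genes of the early embryonic list were lower on both HH27 arrays than on both HH24 arrays, and 2 were called. The median change was -0.55 against 0.0011 over all named genes. LIN28B read 206 and 344 at HH24 and 84.5 and 63.2 at HH27, a change of -1.87 ± 0.30 (adjusted p = 0.00108). SALL4, a zinc finger protein of pluripotent and limb bud cells, read 482 and 457 at HH24 and 209 and 195 at HH27 on its brighter probe set and 299 and 323 at HH24 and 118 and 118 at HH27 on the other, changes of -1.22 ± 0.13 and -1.40 ± 0.24. PRTG, protogenin, an immunoglobulin superfamily receptor of the early embryo, read 904 and 759 at HH24 and 423 and 417 at HH27, a change of -0.98 ± 0.12 that fell just short of 2-fold (adjusted p = 1.06e-04).

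Among the members without a call, DNMT3B, a DNA methyltransferase, read 5967 and 6494 at HH24 and 3781 and 3653 at HH27, and IGF2BP3, an RNA-binding protein of fetal tissues, read 12643 and 10164 at HH24 and 8085 and 6843 at HH27, with adjusted p of 0.00334 and 4.05e-04 and under 2-fold. HMGA2, a chromatin protein and let-7 target, read 1231 and 1085 at HH24 and 669 and 965 at HH27, a difference of -0.52 ± 0.25 with an adjusted p of 0.306. DNMT3B and IGF2BP3 were picked after their values were seen. The summed signal of the list was 49503 and 44920 at HH24 and 33643 and 32496 at HH27. LIN28B and SALL4 stayed called without any 1 of the 4 arrays. LIN28B had a stage mean of 569 at HH19 and 46.7 at HH32, and SALL4 of 961 and 139, so the step from HH24 to HH27 lay within a longer decline.

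HOXB1, a Hox gene of the hindbrain that responds to retinoic acid, was the only call among 17 genes of Hox groups 1 to 8. It read 321 and 304 at HH24 and 84.1 and 113 at HH27, a change of -1.68 ± 0.27 (adjusted p = 0.0011), and it was 896 at HH19 and 51.6 at HH32. Its 2 other probe sets were below background on all 4 arrays. The median of that list was -0.14. Of 11 genes of Hox groups 9 to 13, 0 were called and the median was -0.22, which turned to 0.16 without HH27 replicate 1. CYP26A1, the enzyme that degrades retinoic acid, was on no list and was picked after its values were seen. It read 532 and 432 at HH24 and 266 and 209.7 at HH27, a change of -1.02 ± 0.26 (adjusted p = 0.0341).

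Among the named genes RBM3 gave the largest fall. This RNA-binding protein is known in mammals for its induction by mild cold. RBM3 read 5407 and 3815 at HH24 and 963 and 978 at HH27, a change of -2.23 ± 0.51 (adjusted p = 0.016), and another probe set fell in the same way, by 2.31 on the log2 scale. The brightest of its 4 probe sets read 44702 and 35589 at HH24 and 30859 and 34683 at HH27, a difference of -0.29 ± 0.10 without a call, and the dimmest differed by 0.11. RBM3 lost its call under 3 of the 4 fits that left out an array. RBM10, a splicing regulator, read 3105 and 2559 at HH24 and 1163 and 1250 at HH27 on the 1 called probe set of 5, a change of -1.23 ± 0.18 (adjusted p = 4.90e-04). The other 4 probe sets of RBM10 had changes from -0.70 to -0.30.

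On their called probe sets the stage means of these genes were higher again at HH32. The RBM3 probe set named above had stage means of 3725 at HH19, 4542 at HH24, 970.4 at HH27 and 5068 at HH32. The brightest RBM3 probe set had 32728, 39886.5, 32715 and 29430 at the same stages, with no return at HH32. RBM10 had 1916, 2819, 1206 and 3532 at the same stages, lowest at HH27. DOT1L, the methyltransferase of histone H3 lysine 79, had 434, 468, 209 and 339, and it was called on 2 of 6 probe sets. Of 27 cold-inducible and splicing RNA-binding proteins, counted with 1 probe set per gene in a list written after RBM3 and RBM10 had been seen, 0 were called. Their median change was -0.14, and 16 of the 27 were lower on both HH27 arrays than on both HH24 arrays, against 1 higher.

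Other falls came from genes of varied roles. CHORDC1, a partner of the chaperone HSP90, read 1052 and 737 at HH24 and 378 and 368 at HH27, and ASTL, a metalloprotease of the astacin family, read 409.9 and 419 at HH24 and 186 and 204 at HH27. XRCC3, which acts in repair of DNA by recombination, read 907 and 721 at HH24 and 335 and 403 at HH27 on its called probe set and 907 and 826 at HH24 and 699 and 721 at HH27 on the other. FBXL14, an F-box protein, fell on 1 of 4 probe sets, and CCDC84 on 1 of 3. NUFIP2 read 253 and 262 at HH24 and 117 and 119 at HH27 on the called 1 of its 4 probe sets. MYO3AL, a myosin gene, read 1087 and 1128 at HH24 and 510.1 and 523 at HH27. LOC424918 read 198 and 134 at HH24 and 29.8 and 73.4 at HH27, with HH27 replicate 1 below background. ATP5J2, a subunit of ATP synthase, fell on 1 of 5 probe sets, at 400.1 and 174 at HH24 and 109.5 and 139 at HH27, where the HH24 arrays differed by more than 2-fold.

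Cell cycle genes differed by small amounts. Of 50 measured genes 0 were called, the median change was -0.25, and in 38 both HH27 arrays were below both HH24 arrays against 2 above. CCNE2, cyclin E2, which drives entry into DNA synthesis, read 1176 and 1107 at HH24 and 550.1 and 594 at HH27, just under a 2-fold difference (adjusted p = 2.52e-05). CCNE1, cyclin E1, read 365 and 357 at HH24 and 211 and 242 at HH27, a difference of -0.68 ± 0.16 (adjusted p = 0.0185). The 57 ribosomal protein genes had 0 calls and a median of -0.21, which was -0.0047 after quantile normalization. Without HH24 replicate 1 the ribosomal median was -0.015 and without HH24 replicate 2 it was -0.40. The cell cycle median was -0.23 and -0.27 in the same fits.

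The remaining lists had 0 calls. Their median changes were 0.48 for retina (18 genes), 0.41 for pigment cells (17), 0.34 for acetylcholine receptor and endplate (9), 0.15 for lens (22, or 0.01 with background as floor), -0.11 for epidermis and feather (29), and -0.22 for gut, pancreas and lung (31). For smooth muscle (11) the median was -0.08 and its sign was not stable, with -0.33 without HH24 replicate 2 and 0.31 without HH27 replicate 1. PMEL, a structural protein of melanosomes, read 23.0 and 48.0 at HH24 and 216 and 221 at HH27 (adjusted p = 0.245). FOXA1, a transcription factor of gut endoderm, read 48.6 and 37.1 at HH24 and 8.07 and 2.90 at HH27 (adjusted p = 0.0757), below background on both HH27 arrays. GKN2, a gastrokine of the stomach, read 286 and 340.1 at HH24 and 1143 and 1206 at HH27, a difference of 1.91 ± 0.67 in the other direction (adjusted p = 0.135). In all, 20 of 35 textbook lists had no call, with 1.06% of all named genes rising and 0.156% falling. At those shares a list of this length can have no call without differing from other genes. Of the 170 genes that rose, 39 were on a textbook list, 29 only on a list added later, and 102 on none. The share of all named genes on the lists was not counted, so this split is only descriptive.

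How far single arrays decided the named genes was counted as well. Of 53 called genes chosen by the naming rule, 21 kept their call without any 1 of the 4 arrays. FETUB, SPP2, ALB, TF, AMBP, ITIH2, FBP1, SULT and AKR1B10 among the liver genes and enzymes were in that group, with COL9A1, PENK, CRHBP, CUBN, SLC13A3, AvBD9, LOC418414, LIN28B, SALL4, HOXB1, RBM10 and MYO3AL. Leaving out HH24 replicate 1 took the call from 31 of the 53, HH27 replicate 1 from 27 and HH27 replicate 2 from 22. In all 3 of these fits 20 genes lost the call, namely RBP4, PCK1, PDK4, CYP2AC1, SLC12A3, EPYC, COL9A3, GDF5, TAC1, NEUROD6, TNNC2, HEMGN, DIO2, FGFBP2, AVDL, RBM3, DOT1L, XRCC3, ASTL and ATP5J2. Leaving out HH24 replicate 2 took it only from DIO2, FGFBP2 and PDK4. With the mean of all probe sets of a gene in place of its brightest, the limb bud list, Hox groups 1 to 8 and both lists with DIO2 had 0 calls, so GDF5, HOXB1 and DIO2 were not called. In that setting nuclear factor I had 1 rise, the kidney list 4 rises and 0 falls, and the conjugating enzymes 11 rises.

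The HH19 and HH32 arrays, which entered neither stage mean but shared in the estimate of spread behind the calls, placed the change in the longer course. Of the 223 rising probe sets, 205 were higher at HH32 than at HH19 (91.9%), against 55.2% of all tested. At least 2-fold higher were 168 (75.3%), against 14.5% of all tested. Of the 50 falling probe sets, 36 were lower at HH32 than at HH19 (72%), against 44.8% of all tested. At least 2-fold lower were 17 (34%), against 5.09% of all tested. The median HH32 minus HH19 change was 2.55 for the rising and -0.54 for the falling probe sets. From HH27 to HH32, 170 of the 223 went on upward, while 14 of the 50 went on downward. No share over all tested probe sets was computed for this step. The calls also rest on the HH27 values with which the step begins, so no contrast between rises and falls is drawn. COL23A1, a transmembrane collagen, was the clearest exception among the rises, with 115 and 33.4 at HH24 and 267 and 224 at HH27 and 25.9 and 29.2 at HH32. Its signals on HH24 replicate 2 and on both HH32 arrays were below background.

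**Figure D5:**
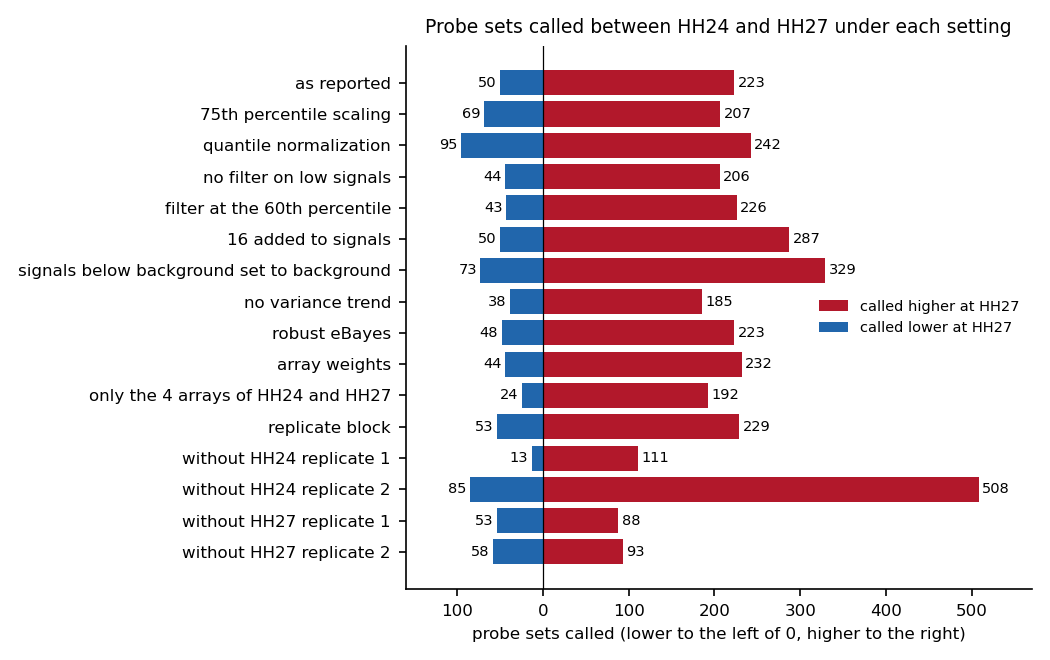
Number of probe sets called higher and lower from HH24 to HH27 under the reported settings and each alternative. The counts range from 124 without HH24 replicate 1 to 593 without HH24 replicate 2, and rises outnumber falls in every setting shown.

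Genes next to the adjusted p threshold of 0.05 show how close some calls were. Just inside, THSD7B read 120.4 and 195 at HH24 and 322 and 325 at HH27 (adjusted p = 0.0498) and GFRA1, a receptor for glial cell line-derived factors, read 1275 and 646 at HH24 and 1976 and 1739 at HH27 (adjusted p = 0.0494). Just outside, ACSL5, which activates fatty acids, read 33.5 and 29.2 at HH24 and 117 and 117 at HH27 on 1 of its probe sets (adjusted p = 0.0504), and PIF1, a DNA helicase, read 107 and 165 at HH24 and 63.3 and 61.5 at HH27 (adjusted p = 0.0518).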

How the data were processed

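Total RNA of pooled whole embryos was measured on 30 Affymetrix arrays, 2 at each of 15 stages. The deposited intensity values are linear MAS5 signals per probe set, made by the authors, per the submitters' processing notes. No source used here gives the version or settings. The average after trimming 2% at each end was 500 on every array. Symbols came from the platform's table (27166 of 37693 chicken probe sets with 1 symbol, 177 with several, 10350 with none), and 1 probe set stood for each gene in a list, the one with the highest mean. The deposited values were used without further normalization and converted to log2 here. Probe sets at or above the 40th percentile of an array on at least 2 arrays were kept. A model with 15 stage means (15 residual degrees of freedom) was fitted in R 4.3.3 with lmFit and trended eBayes of limma 3.58.1, with Benjamini-Hochberg adjustment over 29600 probe sets; it was tested on simulated data. Biological replicates are pools, so p-values measure the spread between pools.

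Named genes were the 15 largest rises and 15 largest falls by the change with background as floor, among called, non-overlapping probe sets with 1 symbol whose brighter stage exceeded the median signal of 149; up to 6 called members of each list, or the 2 with the largest change; and LIN28B, PRTG and HMGA2. Exceptions are said in the text. The comparison, the 35 textbook lists and the named genes were chosen with earlier results of these data known, and 6 lists were added after seeing these. Alternatives were 75th percentile scaling, quantile normalization, no filter or the 60th percentile, 16 added to signals, background as floor, no variance trend, robust eBayes, array weights, the 4 arrays alone, a replicate block, single arrays left out, the mean of all probe sets, no minimum fold, and, added after seeing the data, only calls that stay 2-fold with background as floor (213, of which 176 higher and 37 lower). Figures were drawn with matplotlib 3.10.9 in Python 3.11.15.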

Additional observations from a re-analysis of the deposited data

How the results depend on the processing

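Each stage had 2 arrays, so leaving one out left a stage with 1 array that was assumed to vary like the others. Under the 4 such fits the called probe sets ranged from 124 to 593, the rises from 88 to 508 and the falls from 13 to 85. The HH19 and HH32 means do not use these arrays, so leaving one out could not change a direction from HH19 to HH32. Without a minimum fold, 948 passed, 483 higher and 465 lower. With quantile normalization 95 fell, and with only the 4 arrays of the comparison 24 fell. Other settings gave total counts from 216 to 402, the most with signals below background set to background, where 266 of the 273 kept their direction. All 273 kept it in every other refit that tested all of them. This was largely fixed in advance. Refits that change only the estimate of the spread keep the stage means, and dropping an array cannot reverse signals that do not overlap. Samples with the same replicate number deviated with a correlation of 0.0125, so the numbers were not taken to pair the samples. With a replicate block 282 were called, 229 higher and 53 lower. Among named genes 11 values reversed, all of them of uncalled genes. With the background as floor CHRNG, GJA3, SLC45A2 and ARC came to -0.25, -0.25, -0.065 and -0.25. CHRNG and GJA3 were below background on all 4 arrays, so their floored values are only the difference between the floors of the stages. With single arrays left out GJA3 ranged from -0.59 to 3.39, SLC45A2 from -0.26 to 2.59, ARC from -0.41 to 3.24, DSC1 from -0.37 to 2.92, HOXC13 from -1.95 to 0.52, HINTW from -0.69 to 0.36 and HNRNPKL from -0.17 to 0.47. The cause of the other reversals was not tested. Over these named genes 1273 values kept direction and call, 112 lost the call and 21 gained it. Depth cannot be given for arrays, and with 2 arrays a stage their number limits the precision.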

Other observations

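Among the called genes on no list, all picked after their values were seen, several were well above background on all 4 arrays. EGFL6, a secreted matrix protein, read 845 and 1033 at HH24 and 3338 and 3193 at HH27, a rise of 1.81 ± 0.17. RGN, regucalcin, read 1534 and 1671 at HH24 and 4949 and 4611 at HH27, and DPYS, an enzyme of pyrimidine breakdown, read 187 and 245 at HH24 and 698 and 672 at HH27, so these liver and kidney enzymes rose 2.98-fold and 3.20-fold. AGT, angiotensinogen, rose 2.19-fold, and APOA2, an apolipoprotein, read 608 and 788 at HH24 and 1939 and 1880.4 at HH27. SELENOP1, a selenium transport protein, rose on 2 of its 5 probe sets, the brighter at 2303 and 2706 at HH24 and 5645 and 5423 at HH27. PRPS2, which makes the ribose phosphate precursor of nucleotides, rose on 2 of 3 probe sets, at 272 and 262 at HH24 and 974 and 877 at HH27 on the brighter. PRPSAP1, a regulatory partner of that enzyme, fell on 1 of its 6 probe sets, at 129 and 143 at HH24 and 60.5 and 14.5 at HH27. Its signal on HH27 replicate 2 was below background, and the HH27 arrays lay far apart.

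Several genes known from neurons were also called. The neuron list had 0 calls among 48 genes and the axon guidance list 0 among 36, with 1.06% of all named genes rising. At that share lists of this length can have 0 calls, so no contrast with the genes below is drawn. LINGO1 and RTN4R, parts of the Nogo receptor complex, read 747 and 839 at HH24 and 1724 and 1524 at HH27 and 436 and 539 at HH24 and 1044 and 913 at HH27. CHODL, a membrane lectin of motor neurons, rose on both of its probe sets, at 2785 and 3043 at HH24 and 6335 and 5710.4 at HH27 on the brighter. SEZ6L rose 2.28-fold. PIEZO2, the mechanosensitive channel of touch neurons, read 302 and 333 at HH24 and 749.6 and 939 at HH27. FHL2, a LIM domain protein of heart and other tissues, read 1895 and 1643 at HH24 and 4779 and 4383 at HH27. OC90, a protein of otoconia, the crystals of the inner ear, was below background on both HH24 arrays and rose on both probe sets, at least 1.81-fold on the brighter. Among falls, PODXL, the sialomucin podocalyxin, read 1499 and 1579 at HH24 and 668 and 859 at HH27, and CLSPN, a protein of the replication checkpoint, read 420.4 and 600.3 at HH24 and 266 and 213 at HH27.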
